A study of Mus musculus with 19 samples.

Results

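The neutrophil chemokine genes Cxcl1, Cxcl2, Cxcl3 and Cxcl5 lie side by side on mouse chromosome 5, and the accessible chromatin around them was described by all listed peaks that overlap chr5:90890000-91110000 of mm39. There were 36 such peaks among the 140383 peaks of the consensus list. They were chosen by position, not by strength, although the region itself was chosen with earlier results of these data known. The cells were primary macrophages grown from mouse bone marrow for 7 days with daily 4-hydroxytamoxifen, and open DNA was mapped by ATAC-seq, which uses a transposase to cut and tag it. The 19 samples comprise 10 from Smarca5-/- cells (Smarca5lox/lox Csf1r-Cre mice) and 9 from wild-type cells (Csf1r-Cre mice), so Csf1r-Cre and the tamoxifen derivative are common to all groups. In each genotype, cells received LPS at 10 ng/ml for 1 or 2 h, IFNb at 100 U/ml for 1 or 2 h, or no stimulus. Each of these 10 groups has 2 samples, except wild-type cells with IFNb for 1 h, which have 1. Smarca5 encodes an ATPase of the ISWI chromatin remodellers, Cre expression is driven by the promoter of a macrophage growth factor receptor gene, and neither the animals' ages nor the extent of deletion is known here.

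The list holds a single set of values per peak for the whole series. It names no sample, so no genotype or treatment could be compared, no replicate error can be given, and the depth behind each value is unknown. The absence of a listed peak is therefore not evidence of closed chromatin in any group.

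CXCL1 (KC), CXCL2 (MIP-2), CXCL3 and CXCL5 (LIX) are secreted chemokines that carry an ELR motif and attract neutrophils through the receptor CXCR2. In macrophages, LPS acts through TLR4 and NF-kB, and Cxcl1 and Cxcl2 are textbook rapid targets of that pathway. CXCL5 is best known as a product of epithelial cells. In the RefSeq gene order of GRCm38.p6, used here only for the order of genes, Cxcl5 is followed by Ppbp and Pf4, which encode platelet chemokines, then Cxcl3, Cxcl15, which encodes the lung chemokine lungkine, Cxcl1 and Cxcl2, with Mthfd2l, a gene of mitochondrial folate metabolism, next. Approximate mm39 starts were 90907200 for Cxcl5, 90934000 for Cxcl3, 91039100 for Cxcl1 and 91051730 for Cxcl2, so all distances to a start are approximate. No mm39 positions were used for Ppbp, Pf4, Cxcl15 or Mthfd2l, and a peak counted for the nearest of the 4 chemokine starts may lie nearer to one of these genes.

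RefSeq promoter windows, from 250 bases before to 50 bases after the annotated start, were available for 3 of the 4 genes. These are shown because listed peaks lay at or next to the starts of the same genes. Capitals mark GGGAATTTCCC, the longest run of letters before the start that all 3 windows share, and a TATA-like element (TATAAAA or CATAAAA). The sequences are on the plus strand of chromosome 5 of GRCm38.p6, 5′ to 3′.
Cxcl1: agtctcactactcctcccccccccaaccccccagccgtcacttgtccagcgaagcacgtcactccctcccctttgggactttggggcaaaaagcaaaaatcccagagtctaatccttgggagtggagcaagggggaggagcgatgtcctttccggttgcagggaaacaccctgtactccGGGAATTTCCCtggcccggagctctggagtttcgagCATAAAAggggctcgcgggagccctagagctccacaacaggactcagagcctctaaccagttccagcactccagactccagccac
Cxcl2: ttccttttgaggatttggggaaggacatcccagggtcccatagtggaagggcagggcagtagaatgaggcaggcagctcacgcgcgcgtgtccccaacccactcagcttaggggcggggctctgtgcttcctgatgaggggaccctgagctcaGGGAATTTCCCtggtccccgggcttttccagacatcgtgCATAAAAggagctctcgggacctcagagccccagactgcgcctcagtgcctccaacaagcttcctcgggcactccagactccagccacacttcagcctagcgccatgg
Cxcl3: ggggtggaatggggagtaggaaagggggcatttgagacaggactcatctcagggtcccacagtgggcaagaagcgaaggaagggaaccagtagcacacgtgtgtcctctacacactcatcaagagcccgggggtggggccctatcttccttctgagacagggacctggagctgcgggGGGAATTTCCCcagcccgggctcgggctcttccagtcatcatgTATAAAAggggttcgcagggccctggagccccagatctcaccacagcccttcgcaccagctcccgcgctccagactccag

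The shared run GGGAATTTCCC was chosen because the 3 windows have it in common, so its presence in each is a description. It stood on the listed strand ahead of the TATA-like element and began 71 bp before the start of Cxcl1, 97 bp before that of Cxcl2 and 73 bp before that of Cxcl3. Its first base lay 36 bp before the first base of the TATA-like element in Cxcl1, 39 bp in Cxcl2 and 43 bp in Cxcl3. The TATA-like element itself began 35, 58 and 30 bp before the annotated start in the same order of genes. Both elements thus lay farthest from the annotated start in Cxcl2. Searched on both strands, the run occurred in 14 of all 32851 RefSeq promoter windows of this length, or 0.0426%. The only other shared run of at least 10 letters, CTCCAGACTCCAG, lay after the start in all 3 genes, and 4 of all windows held it on the listed strand.

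The shared run holds a match to the NF-kB consensus motif on each strand, and these overlap in all but 1 base at either end. A match to that consensus was found in 4.51% of all windows. Among the 6 windows it occurred in Cxcl1, Cxcl2 and Cxcl3, within the shared run only, and not in Cxcl15, Ppbp or Pf4.

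The other motifs searched on both strands occurred in at most 3 of the 6 windows each. TGANTCA (AP-1), found in 7.81% of all windows, occurred in Ppbp. TTGCNNCAA (C/EBP), found in 2.08%, occurred in Cxcl1. GAGGAAGT (PU.1), found in 3.20%, occurred in Pf4. GAAANNGAA, a core of the interferon-stimulated response element found in 8.56%, occurred in 0 of these 6 windows. TATAAAA, found in 5.48% of all windows, occurred in Cxcl3 and Ppbp, and CATAAAA, found in 4.19%, in Cxcl1, Cxcl2 and Ppbp. A match describes the letters only, and a missing match says nothing about a factor.

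The Cxcl2 and Cxcl3 windows were the most alike, with 72.5% identity over 265 aligned bases. Cxcl1 and Cxcl2 had 67.4% identity over 258 aligned bases, and Cxcl3 and Cxcl1 had 66.9% over 257. The other pairs among the 6 windows lay between 50.9% and 59.2%, so identities are to be read against that level for these short windows. The GC content was 58.7% in Cxcl1, 60.7% in Cxcl2 and 61% in Cxcl3, against a median of 52.7% over all windows. These 3 windows held 10, 11 and 10 CpG dinucleotides in the same order, against 3 each in Cxcl15, Ppbp and Pf4 and a median of 7 over all windows.

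**Figure D1:**
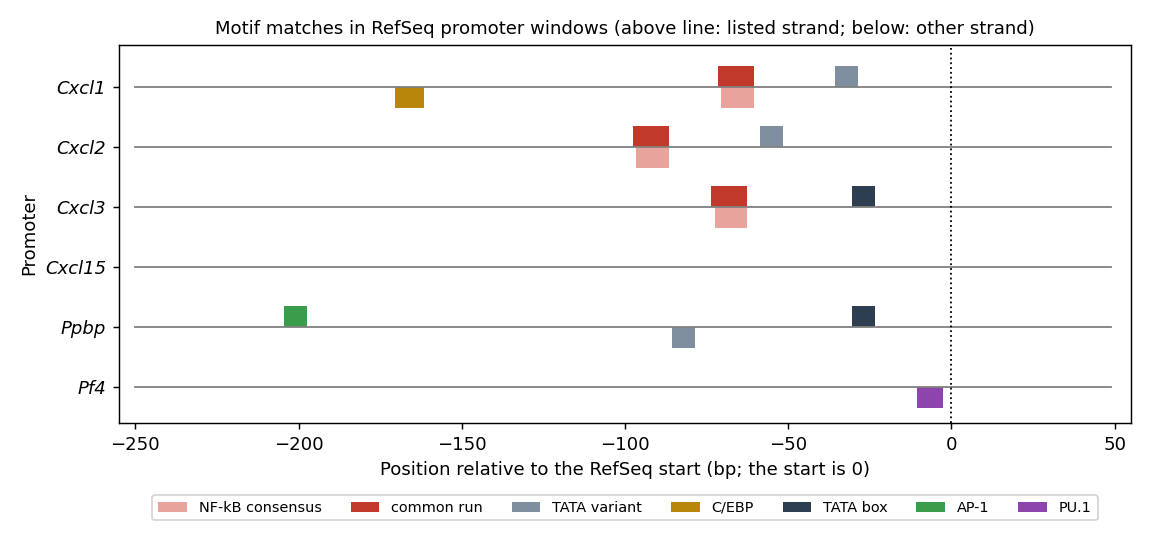
Motif matches in the RefSeq promoter windows of the 6 genes with a window; the x axis is the position relative to the annotated start in bp, and boxes above and below each line are on the listed and the other strand. The run shared by the 3 genes (dark red) stands ahead of a TATA-like box in Cxcl1, Cxcl2 and Cxcl3, where it begins 71, 97 and 73 bp before the start.

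The region was rich in listed peaks of ordinary fold. It had 164 peaks per Mb, against 58.1 peaks per Mb on chromosome 5, and the summed width of its peaks was 4.08% of its length, against 1.44% for chromosome 5. Among 12363 adjacent windows of 220000 bp along the assembled chromosomes, the median number of peaks was 5, the quartiles were 0 and 21, and 983 windows (7.95%) held at least 36. The median fold, the authors' enrichment value for a peak, was 9.33 in the region and 9.85 in the whole list. Quartiles of the fold were 6.94 and 12.4 in the region and 6.71 and 15.7 in the whole list. Of the 36 peaks, 4 had a fold of 20 or more (11.1%), against 15.0% of the list, and 15 had a fold of 10 or more (41.7%), against 49.1% of the list.

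The deposited −log10 q, which grows with the evidence for a peak, was higher in the region than in the list. Its median was 72.9 in the region and 45.3 in the whole list. A −log10 q of at least 100 was reached by 14 of 36 peaks (38.9%), against 28.2% of the list, and a −log10 q of at least 200 by 9 (25.0%), against 15.6% of the list. The median width was 180.5 bp in the region and 196 bp in the list, and 2 peaks (5.56%) were at least 500 bp wide, against 7.35% of the list. With 36 neighbouring peaks and no replicates, these differences are descriptions and were not tested.

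The peaks were unevenly shared among the genes. By nearest start, 15 peaks fell to Cxcl2, 8 to Cxcl1, 8 to Cxcl5 and 5 to Cxcl3. The stretches nearest each start differ in length, so these counts are not densities, and 7 peaks lay over 20 kb after the Cxcl2 start. There were 291 peaks per Mb before Cxcl5, 224 from Cxcl5 to Cxcl3 and 85.6 from Cxcl3 to Cxcl1. The density was 396 peaks per Mb from Cxcl1 to Cxcl2 and 189 after Cxcl2. Within 5 kb of a start there were 6 peaks for Cxcl2, 5 for Cxcl3, 1 for Cxcl1 and 1 for Cxcl5. The median −log10 q was 83.7 for the Cxcl2 peaks, 125 for Cxcl1, 43.5 for Cxcl3 and 33.1 for Cxcl5. The median fold had another order, at 6.97 for Cxcl2, 10.9 for Cxcl1, 9.68 for Cxcl3 and 9.10 for Cxcl5. That order depended on the weak peaks. Among peaks at or above the list's median −log10 q, medians were 13.1 for Cxcl2, 11.4 for Cxcl1, 9.92 for Cxcl3 and 14.5 for Cxcl5. These medians rest on only 9, 7, 2 and 3 peaks, in the same order of genes. A −log10 q of at least 100 was found at 12 of 23 peaks nearest Cxcl1 or Cxcl2 (52.2%). It was found at 2 of 13 nearest Cxcl5 or Cxcl3 (15.4%), against 28.2% of the list. The peaks nearest Cxcl1 or Cxcl2 were thus 12 of the 14 peaks of the region at that level, and 23 of all its 36 peaks. Of the 12, 3 lay over 20 kb after the Cxcl2 start.

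**Figure D2:**
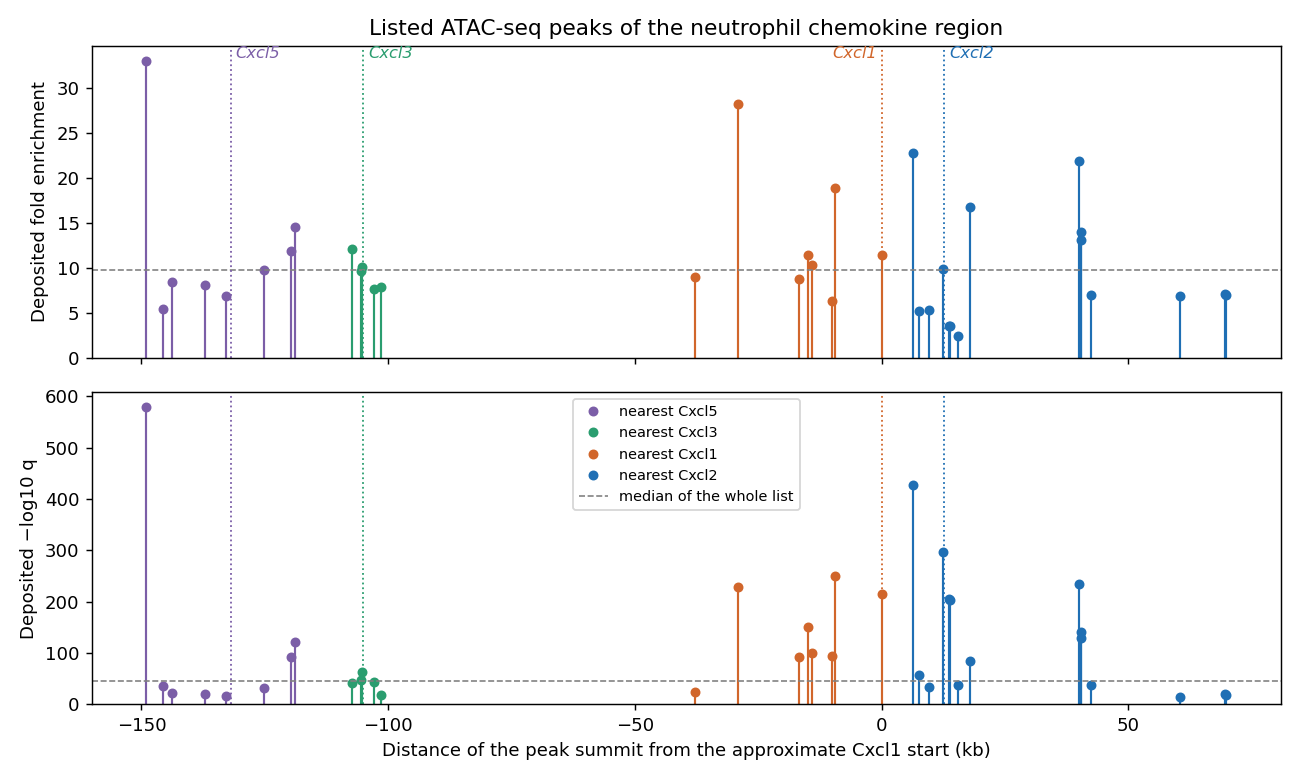
The 36 peaks by distance of the summit from the approximate Cxcl1 start (x axis, kb), with the deposited fold above and the deposited −log10 q below; colours give the nearest chemokine start, dotted lines the starts and dashed lines the medians of the whole list (9.85 and 45.3). Peaks are dense from about 20 kb before Cxcl1 to Cxcl2, and a stretch of 63.4 kb between Cxcl3 and Cxcl1 has none.

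Cxcl1 and Cxcl2 each had a broad peak over the approximate start, the widest in the region. The Cxcl1 peak, chr5:91038620-91039609, was 990 bp wide, wider than 99.7% of the list. Its summit lay 61 bp after the approximate start, its fold was 11.5 and its −log10 q 215. The Cxcl2 peak, chr5:91051041-91051779, was 739 bp wide, wider than 98.5% of the list. Its summit lay 117 bp before the approximate start, its fold was 9.89 and its −log10 q 296. The Cxcl1 peak was thus wider and of higher fold, and the Cxcl2 peak had the higher −log10 q. The Cxcl2 peak ended at 91051779, only just past the approximate start of 91051730. Whether it covers the true Cxcl2 start therefore cannot be said.

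Cxcl3 had a pair of narrow peaks next to its approximate start rather than a broad one. The peak chr5:90933858-90933966 was 109 bp wide, with its summit 127 bp before the approximate start, a fold of 10.2 and a −log10 q of 62.1. The peak chr5:90933523-90933666 was 144 bp wide, with its summit 403 bp before the approximate start, a fold of 9.68 and a −log10 q of 48.0. They were separated by 191 bp. The nearer ended 34 bp short of the approximate start, which is given too coarsely to say whether this peak covers the true start. In fold the Cxcl3 peaks were close to the Cxcl1 and Cxcl2 start peaks, but their −log10 q values were far lower.

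Cxcl5 had no listed peak over its approximate start. The nearest, chr5:90906166-90906346, had its summit 928 bp away on the low-coordinate side, a fold of 6.85 and a −log10 q of 15.9, above only 14.1% of the list. In order of −log10 q the peaks nearest the 4 starts ran Cxcl2, Cxcl1, Cxcl3, Cxcl5, and in order of fold Cxcl1, Cxcl3, Cxcl2, Cxcl5. With no spread over samples, whether neighbours in these orders differ cannot be said. Listed accessibility at the starts thus ran from broad and well supported at Cxcl1 and Cxcl2 to weak at Cxcl5.

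**Figure D3:**
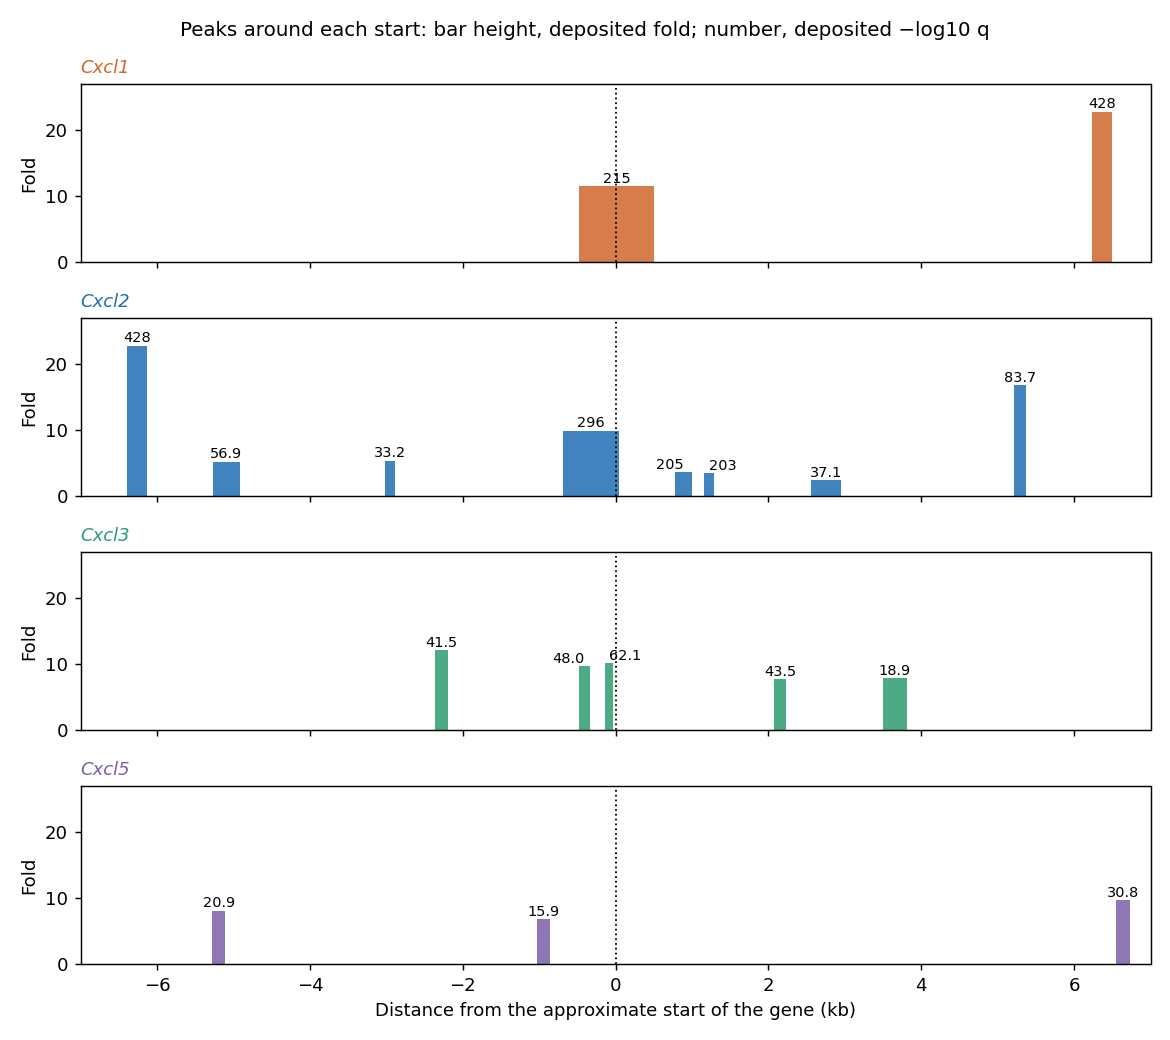
Peaks within 7 kb of each approximate start (x axis, kb), drawn to their width; bar height is the deposited fold and the number above a bar its deposited −log10 q. Cxcl1 and Cxcl2 have broad bars at the start with a −log10 q of 215 and 296, Cxcl3 has a pair of narrow bars next to it, Cxcl5 has none there, and the bars just after the Cxcl2 start are low with a −log10 q of 205 and 203.

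The 4 highest folds of the region lay away from the starts, whereas in −log10 q the Cxcl2 start peak, at 296, ranked behind only the peaks with 579 and 428. The highest fold and −log10 q, 33.1 and 579, belonged to chr5:90889913-90890261, 17.1 kb from the Cxcl5 start on the low-coordinate side. This peak crosses the edge of the region by 87 bp, and its fold was above 98.7% of the list. The next fold, 28.3 with a −log10 q of 229, was at chr5:91009815-91010077, 29.2 kb before Cxcl1. The one after it, 22.8 with a −log10 q of 428, was at chr5:91045332-91045598 between Cxcl1 and Cxcl2. Its summit was 6.36 kb from the Cxcl1 start and 6.27 kb from the Cxcl2 start, only 41 bp from the midpoint, so its assignment to Cxcl2 depends on the approximate starts. A fold of 21.9 with a −log10 q of 234 was reached at chr5:91078840-91079168, 27.3 kb after the Cxcl2 start, on the side of Mthfd2l.

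Upstream of Cxcl1, 5 peaks formed a cluster between 5 and 20 kb before the start. Their folds ranged from 6.33 to 19.0 and their −log10 q values from 91.9 to 251, all above the list median of 45.3. The strongest, chr5:91029532-91029905, lay 9.38 kb before the start and had the highest −log10 q among the peaks nearest Cxcl1, 251, with a fold of 19.0. The remaining peak of this gene, chr5:91001176-91001300, lay 37.9 kb before the start, with a fold of 8.98 and a −log10 q of 24.4. Within 5 kb of the Cxcl1 start, the start peak was the only listed peak.

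The 12.63 kb from the Cxcl1 start to the Cxcl2 start held the summits of 5 peaks, and 15.4% of its bases lay inside listed peaks, against 4.04% of the whole region. Besides the start peaks and the shared peak of fold 22.8, there were 2 weaker peaks before Cxcl2. The peak at chr5:91046465-91046810, 4.99 kb before the Cxcl2 start, had a fold of 5.22 and a −log10 q of 56.9. The peak at chr5:91048714-91048847, 2.97 kb before it, had a fold of 5.35 and a −log10 q of 33.2. Both folds were below the list median of 9.85.

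Downstream of the Cxcl2 start, peaks combined very low fold with high −log10 q. The peak chr5:91052508-91052728, 0.919 kb after the start, had a fold of 3.61 and a −log10 q of 205. The peak chr5:91052884-91053017, 1.18 kb after the start, had a fold of 3.51 and a −log10 q of 203. Across the list, the 21853 peaks with a −log10 q of at least 200 had a median fold of 23.4, with quartiles of 17.9 and 28.6. Only 6 of them (0.0275%) had a fold under 4, and these Cxcl2 peaks were 2 of the 6. The fold limit of 4 was chosen after these values were seen, and the −log10 q limit of 200 lies just under both peaks. The count of 6 thus describes the list at these limits and is not a measure of rarity. The other 4 were on chromosomes 1, 7 and 17, were from 213 to 4526 bp wide and had −log10 q values from 239 to 15623. Only that on chromosome 7, 213 bp wide with a −log10 q of 239, was near the Cxcl2 pair in both.

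Each fold was also set against the median fold of peaks in the same percentile of −log10 q. The ratio was 0.191 and 0.186 for these Cxcl2 peaks, and only 9 and 7 peaks of the list had a lower ratio. Another peak, chr5:91054290-91054682, 2.87 kb after the start, had the lowest fold of the region, 2.46, with a −log10 q of 37.1 and a ratio of 0.236. The Cxcl2 start peak had a ratio of 0.468, against 0.590 for the Cxcl1 start peak and 0.786 for the Cxcl3 peak nearest its start. A ratio under 0.5 occurred at 6 of the 36 peaks (16.7%), against 6.86% of the list, and 5 of the 6 lay within 10 kb of the Cxcl2 start. The remaining one was chr5:91028882-91029103, 10.1 kb before Cxcl1, with a ratio of 0.413. At 5.31 kb after the Cxcl2 start, chr5:91056938-91057102 had a ratio of 1.16 with a fold of 16.8, so the low ratios did not extend to that peak. Whether local background or the way values were combined over samples plays a part was not tested.

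**Figure D4:**
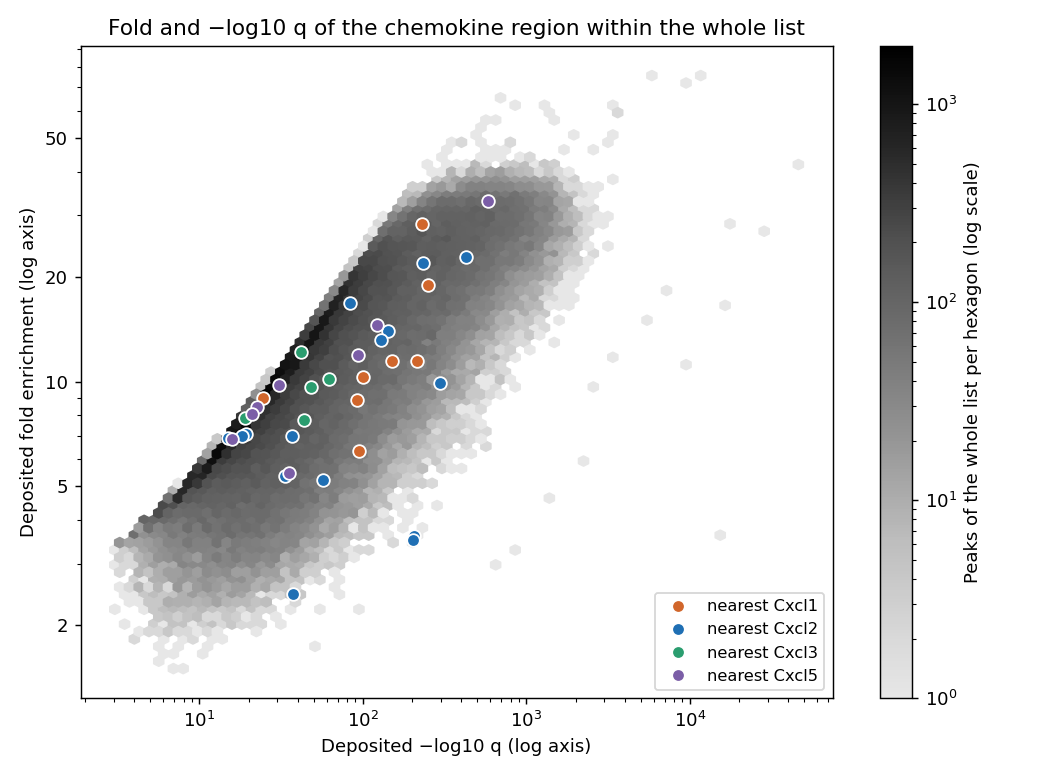
Deposited fold against deposited −log10 q on log axes; grey hexagons count the peaks of the whole list and coloured points are the 36 peaks by nearest start. The pair of Cxcl2 points with a fold of 3.61 and 3.51 at a −log10 q of 205 and 203 lies below the main cloud, and the peak of fold 2.46 lies at its lower edge.

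Beyond Cxcl2, 7 peaks lay over 20 kb after its start. Besides the peak of fold 21.9, a touching pair at chr5:91079345-91079482 and chr5:91079483-91079605 had folds of 14.0 and 13.1 and −log10 q values of 141 and 130. The other 4 had folds from 6.88 to 7.07 and −log10 q values from 15.0 to 36.8. This end of the region thus held a compact strong group next to weak scattered peaks.

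On the Cxcl3 and Cxcl5 side, the median −log10 q was lower but the median fold was not. The 13 peaks nearest Cxcl5 or Cxcl3 had a median −log10 q of 41.5 and a median fold of 9.68, and the 23 nearest Cxcl1 or Cxcl2 had 100 and 8.98. Other measures of fold had the opposite order. The upper quartile was 11.9 on the Cxcl3 and Cxcl5 side and 13.6 on the other. A fold of 10 or more was found at 38.5% and 43.5% of peaks in the same order, against 49.1% of the list. Cxcl3 had its highest fold, 12.1 with a −log10 q of 41.5, at chr5:90931634-90931813, 2.26 kb before the start. Its other 2 peaks lay 2.17 and 3.74 kb after the start, with folds of 7.73 and 7.85 and −log10 q values of 43.5 and 18.9. Between Cxcl5 and Cxcl3, in the interval that holds Ppbp and Pf4, a pair of peaks 576 bp apart had folds of 11.9 and 14.5 and −log10 q values of 92.7 and 122. The second, chr5:90920146-90920486, lay 13.1 kb from the Cxcl5 start and 13.7 kb from the Cxcl3 start. The other 4 peaks counted for Cxcl5 had folds from 5.46 to 9.75 and −log10 q values from 20.9 to 35.5.

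Neighbouring peaks stood closer than in the list as a whole. The median gap between neighbours was 2.10 kb in the region and 5.09 kb in the list, and 10 of 35 gaps (28.6%) were under 1 kb, against 18.6% in the list. The longest gap, 63.4 kb from chr5:90937498-90937813 to chr5:91001176-91001300, lay between Cxcl3 and Cxcl1, the interval that holds Cxcl15. A gap at least this long was found at 3.09% of neighbouring pairs in the list. The region thus consisted of a Cxcl5 and Cxcl3 side and a Cxcl1 and Cxcl2 side with no listed peak between them.

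Every deposited score in the list became whole when multiplied by a whole number of at most 20, as averages of whole numbers can. The smallest such multiplier does not give how many values were averaged, since an average of many values can also come out whole. A plain average with a smallest multiplier of 20 needs at least 20 values, more than the 19 samples. Such scores are therefore not plain averages of a single whole value per sample. A multiplier of 20 was found at 3 of the 36 peaks (8.33%), against 14.6% of the list. These were the peak of fold 33.1 on the Cxcl5 side, the peak of fold 14.5 between Cxcl5 and Cxcl3, and chr5:91024809-91025151, 14.2 kb before Cxcl1. A multiplier of 4 was the most frequent, at 11 peaks (30.6%), against 11.5% of the list, and it included the Cxcl2 start peak and the pair of low-fold peaks after it. The Cxcl1 start peak had a multiplier of 8 and the Cxcl3 peak nearest its start 12. Scores were already whole at 7 peaks (19.4%), against 17.8% of the list. Which values entered an average is not stated by the list.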

How the data were processed

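ATAC-seq was performed on 19 samples, and 1 consensus peak list for the whole series was analysed. The submitters' processing notes name mm39 as the build and list MACS2 2.2.7.1, deepTools 3.5.1, STAR 2.7.9a and Picard 2.27.4. The sources used here do not give what each tool did, any read shifting, the thresholds or the step that joined samples into a consensus. The deposited columns are a score, a fold enrichment (a ratio, the signal column of the narrowPeak layout), a −log10 q and a summit offset in bp. These are the authors' values. Coordinates were read as counted from 1, with both end bases included in the width. On that reading, 0 neighbouring peaks shared a base and 0 summit offsets reached the width. In contrast, 74 summit offsets were at or above end minus start. No base would be shared on a count from 0 with the end base left out either, so only the offsets bear on the choice. The depth per sample is unknown.

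Peaks overlapping the region were taken, and summits were assigned to the nearest of the 4 approximate starts. Folds were compared with the median fold in the same of 100 percentiles of −log10 q. Motifs were searched in the RefSeq promoter windows of GRCm38.p6, and windows were aligned globally with free end gaps. Of 7 chemokine genes looked for, 6 had a window. No test between groups could be made. The functions were tested on simulated data. Full values were given for each gene's peak nearest its start and its highest fold and −log10 q, and for the 3 highest folds, −log10 q values and widths of the region; other peaks are named by position. Cxcl15, Ppbp and Pf4 had no mm39 position here. They were named, outside that rule, for gene order, for the intervals that hold them by that order, and for promoter windows. The genes, region and lists were chosen with earlier results of these data known. The alternatives were a stricter threshold, merging or leaving out touching peaks, fixed distances to starts, a trimmed region and a lower fold threshold. Computation used Biopython 1.88, pandas 2.3.3, numpy 2.4.6, scipy 1.17.1 and matplotlib 3.10.9 under Python 3.11.15.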

Additional observations from a re-analysis of the deposited data

How the results depend on the processing

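Of 29 alternative values over 13 results, 17 stayed within 1.5 times (counts and density) or within a 95% binomial interval over peaks (medians and shares), and 12 moved. When peaks under the median −log10 q of the list were dropped, the region had 21 peaks, with a median −log10 q of 141, and 3 were nearest Cxcl5, 2 nearest Cxcl3 and 9 nearest Cxcl2. Within 10 kb of a start there were 3 peaks for Cxcl5, 5 for Cxcl1 and 8 for Cxcl2, with 3 peaks counted for both Cxcl1 and Cxcl2. Within 5 kb there were 1 for Cxcl5, 1 for Cxcl1 and 6 for Cxcl2. The median fold per gene was counted as unmoved, but its interval was wide and neighbouring peaks are not replicates. For Cxcl5, Cxcl3 and Cxcl1, with 8 peaks or fewer each, that interval was the full range of the gene's folds. Dropping some of those peaks could therefore not count as a move. The order of these medians changed under the stricter threshold, to 13.1 for Cxcl2 and 14.5 for Cxcl5, against 6.97 and 9.10 with all peaks. A fold of 10 in place of 20 gave a share of 41.7%. These shifts follow from fewer peaks, a smaller distance or a lower limit. Cxcl2 had the most peaks under each of these assignments and thresholds. No paired analysis was possible because no column belongs to a sample. Since depth is unknown, weak regions may be missing.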
